A study of Rattus norvegicus with 6 samples.

Results

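The forkhead family was taken as every row of the deposited gene table whose symbol begins with Fox, a letter from a to s and a number, with Foxm1 left out, which gave 29 genes in 14 subfamilies among 19088 gene rows. Their messenger RNA was measured in primary cells of the nucleus pulposus, the soft core of the intervertebral disc, from Sprague Dawley rats. The rShh group (n = 3) received recombinant Sonic hedgehog, the secreted ligand of the Hedgehog pathway, at 200 ng/ml for 48 h, and the Control group (n = 3) received DMSO, the solvent, for the same time. All 6 samples were grown in DMEM/F12 with fetal bovine serum, and no source used here gives the animals' age or number. Nothing in the labels ties the 3 samples of a group to different animals or cultures, so the p-values rest on a spread between samples that may be only technical.

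Forkhead proteins are transcription factors that bind DNA through a winged-helix domain and are named by subfamily letters according to the sequence of that domain. The FOXA proteins open compact chromatin and mark the notochord, from which the nucleus pulposus develops, whereas FOXF and FOXC proteins pattern mesenchyme, including the sclerotome around the notochord that responds to Sonic hedgehog. The FOXO proteins are held out of the nucleus by AKT and SGK kinases when growth factors are present, the FOXP proteins repress transcription as dimers, and the FOXK proteins are widely expressed repressors.

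Promoter sequence was shown for the 4 genes with the largest changes among the called members that RefSeq's promoter table (build GRCr8) held, to let their start regions be read beside their values. The table held 17 of the 29 members. Each run is the 250 bases before the start, 5′ to 3′ on the strand that RefSeq gives the gene. Capitals mark the letters of 4 motifs searched on both strands: the forkhead motif GTAAACA, the GLI motif GACCACCCA, the CCAAT box CCAAT and the TATA motif TATAAA.
Foxp1 (chr4:133353281-133353530, minus strand): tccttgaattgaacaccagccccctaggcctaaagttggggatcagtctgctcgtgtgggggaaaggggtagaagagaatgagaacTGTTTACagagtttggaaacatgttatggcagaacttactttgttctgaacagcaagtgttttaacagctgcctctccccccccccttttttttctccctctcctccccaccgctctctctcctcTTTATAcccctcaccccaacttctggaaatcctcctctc
Foxc1 (chr17:32844101-32844350, minus strand): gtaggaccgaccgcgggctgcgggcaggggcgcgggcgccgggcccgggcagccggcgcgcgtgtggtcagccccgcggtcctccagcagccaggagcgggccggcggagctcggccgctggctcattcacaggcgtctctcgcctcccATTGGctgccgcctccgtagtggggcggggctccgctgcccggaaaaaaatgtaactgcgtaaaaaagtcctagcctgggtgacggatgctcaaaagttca
Foxd2 (chr5:133667484-133667733, minus strand): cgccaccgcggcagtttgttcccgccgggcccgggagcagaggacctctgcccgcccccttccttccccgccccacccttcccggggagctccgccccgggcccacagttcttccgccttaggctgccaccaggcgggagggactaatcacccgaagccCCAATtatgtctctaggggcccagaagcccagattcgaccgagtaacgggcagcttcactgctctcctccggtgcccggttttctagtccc
Foxa2 (chr3:155927509-155927758, minus strand): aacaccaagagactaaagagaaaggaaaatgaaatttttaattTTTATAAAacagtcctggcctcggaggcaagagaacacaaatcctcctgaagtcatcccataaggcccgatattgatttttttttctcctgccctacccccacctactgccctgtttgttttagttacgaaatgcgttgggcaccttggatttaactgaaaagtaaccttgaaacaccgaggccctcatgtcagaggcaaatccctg
In the Foxp1 window the forkhead letters began 164 bases before the start, and TATAAA 39 bases before it, both on the opposite strand. No other of the members' 18 windows had the forkhead letters, and 3.21% of all 33469 windows in the table had them. The Foxc1 and Foxd2 windows each had 1 CCAAT box, at 101 and 91 bases before the start, a motif found in 34% of all windows and 33.3% of the members' windows. The Foxa2 window had the TATAAA letters once on each strand, overlapping, at 207 and 205 bases before the start. TATAAA stood in 12.9% of all windows and in 22.2% of the members' windows. The GLI letters were in no member's window and in 0.338% of all windows. The Foxc1 window was 70% G and C with 29 CpG, whereas the Foxa2 window was 42.8% G and C with 5 CpG. The median of all windows was 51.2% with 5 CpG, and that of the members' windows 70.4% with 28 CpG. A match is only a match of letters in this window, no binding was measured, and the RefSeq start need not be that of the deposited rows. For Foxa2 the deposited row lay on the plus strand, whereas the RefSeq window is on the minus strand. That window may thus not be the start region of the row whose values are given.

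The libraries held 50758195 to 55501124 gene counts in the Control group and 65116846 to 70031072 in the rShh group. Transcripts of the Y chromosome set the groups apart, as Eif2s3y had 0 counts in every Control library and 3868 to 4159 in the rShh libraries, and Kdm5d 0 against 2235 to 2335. The source of the cells, including its sex, and the treatment therefore cannot be told apart in any comparison here, for genes of any chromosome. Ptch1, the receptor gene that Hedgehog signalling induces, rose from 1.39 ± 0.198 to 3.65 ± 0.213 FPKM (SD, n = 3 each; edgeR log2 fold change 1.38, SE 0.11, adjusted p = 2.42e-06), whereas Gli1 had 22, 0 and 0 counts in the Control and 25, 35 and 30 in the rShh libraries and was not called (log2 fold change 1.75, SE 1.12, adjusted p = 0.2). Of the notochord and nucleus pulposus markers, 10 symbols were in the table and 9 were tested. Acan, Hif1a and Slc2a1 rose, Cd24, Krt8, Pax1, Foxa1 and Foxa2 fell, and Foxf1 was not called. Krt18 had 0 to 9 counts per library, and T, Noto and Krt19 were not analysed here. Of 5 tested markers of annulus and tendon fibroblasts, Thbs4, Pdgfra and Mkx rose and Col1a1 and Scx fell, and their sum, mostly Col1a1, was 4966 to 5364 FPKM in the Control and 2424 to 2466 FPKM in the rShh libraries. Mitochondrial transcripts took 1.97% to 2.28% of the Control counts and 3.25% to 3.36% of the rShh counts, and the part of this in any result here was not tested.

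Levels are given in FPKM, the deposited fragments per length of transcript and library size, so that genes of different length can be set side by side. Changes are log2 fold changes, rShh minus Control, from edgeR's quasi-likelihood test on the deposited counts, two-sided, with p-values adjusted over the 14775 genes tested. A gene was called where the adjusted p was below 0.05.

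Across the family, 22 of the 29 members had enough counts to be tested, of which 8 were higher and 6 lower in the rShh libraries. Foxs1, Foxp1, Foxc1, Foxo1, Foxn2, Foxn3, Foxj3 and Foxd2 rose (36.4% of those tested, where 31.5% of all genes tested rose). Foxa1, Foxa2, Foxc2, Foxp2, Foxp4 and Foxk2 fell (27.3%, where 28.8% of all genes tested fell). These shares are near the background, so the number of called members is no result about the family. Foxa3, Foxf1, Foxj2, Foxk1, Foxn1, Foxo3, Foxo4 and Foxq1 were not called. The 3 values of one group lay wholly above those of the other in 15 of the 22 tested members (68.2%, where 68.1% of all genes tested did so). The median log2 change of the tested members was -0.05 beside 0.01 over all genes tested. The median of its absolute size was 0.71 beside 0.49. In FOXC and FOXP, called members moved in opposite directions, and in FOXA, FOXJ, FOXK, FOXN and FOXO called members stood beside relatives that were not called.

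**Figure D1:**
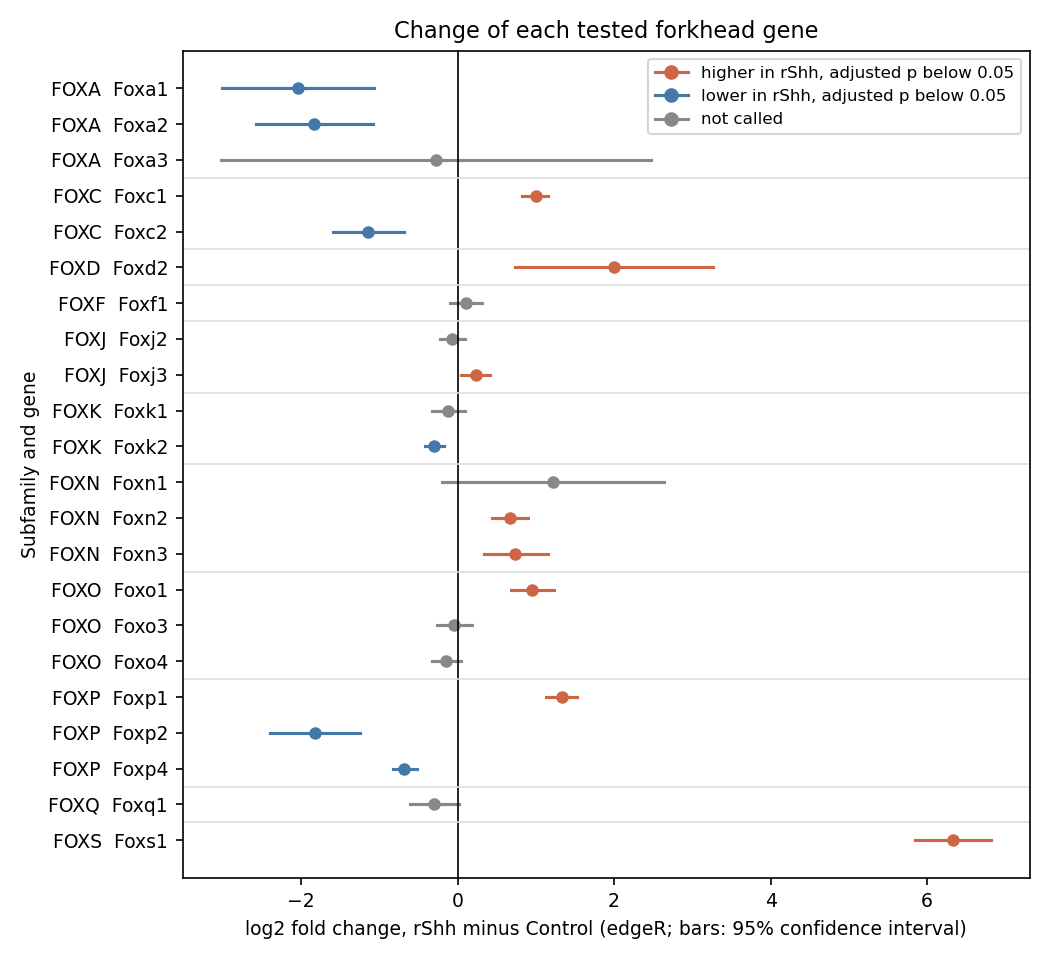
Log2 fold change (x axis, rShh minus Control) of each of the 22 tested forkhead genes, grouped by subfamily, with points for the edgeR estimate and bars for its 95% confidence interval (n = 3 per group). Foxs1 stands at 6.33, and all other members lie between -2.04 and 2.00.

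The summed level of the family was 127, 129 and 128 FPKM in the 3 Control libraries and 158, 163 and 158 FPKM in the 3 rShh libraries, 1.25-fold higher. The groups did not overlap. Foxp1 added 17.7 FPKM to the mean, Foxs1 15.2 and Foxc1 6.77, whereas Foxp4 took away 9.74 and Foxk2 3.27. Without Foxs1 the family's sum was 127 to 129 FPKM in the Control and 142 to 147 FPKM in the rShh libraries, 1.13-fold higher. FOXP was the most abundant subfamily in every library. FOXK followed in the Control libraries, whereas FOXK, FOXF and FOXO lay within their spread of each other in the rShh libraries, at 17.7 ± 0.858, 17.4 ± 0.951 and 17.4 ± 0.939 FPKM (SD, n = 3). FOXP took 30.3% of the family's FPKM in the Control and 28.9% in the rShh libraries, and FOXK 16.5% and 11.1%. FOXS, a subfamily of 1 gene, moved from 11th to 5th place of 14, and FOXA from 9th to 11th. FOXF, FOXJ and FOXO kept sums whose groups overlapped.

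**Figure D2:**
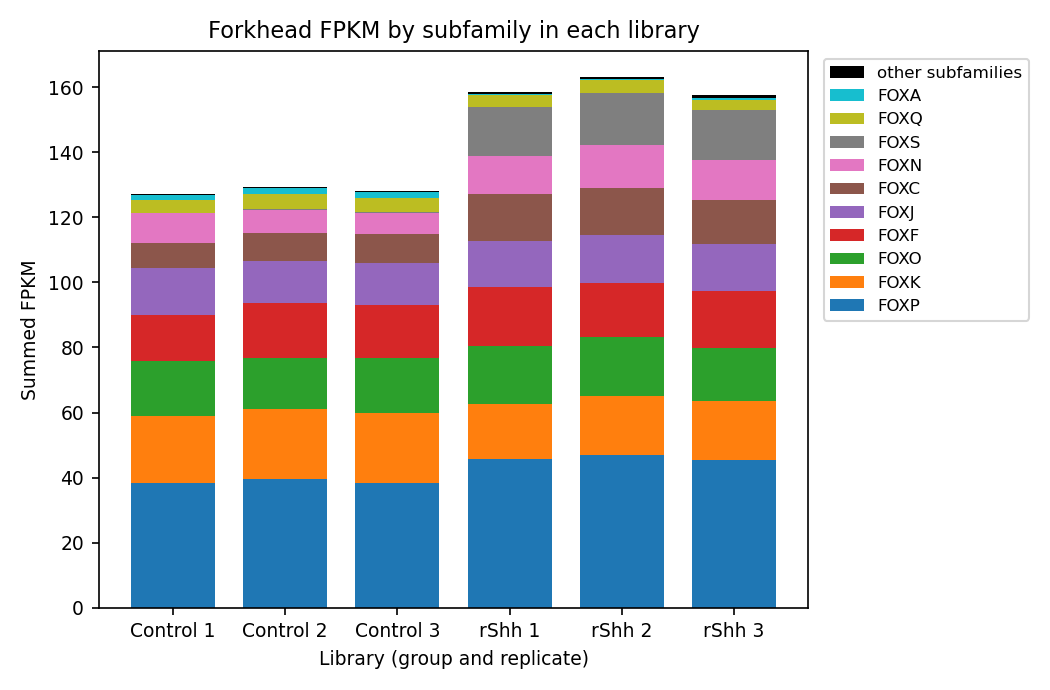
Summed FPKM (y axis, from 0) of the forkhead genes in each of the 6 libraries, stacked by subfamily, with subfamilies under 1 FPKM in every library joined as other. The FOXS layer, at most 0.242 FPKM in the Control libraries, is 15.1 to 15.8 FPKM in the rShh libraries.

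FOXS held the largest change. Foxs1 (chromosome 3, 148406513 to 148407778, minus strand, in the coordinates of the deposited table, whose build no source used here gives) encodes a forkhead factor described in neural crest derivatives and in the cells that wrap blood vessels. Its level was 0.224, 0.242 and 0.0887 FPKM in Control 1 to 3 and 15.1, 15.8 and 15.3 FPKM in rShh 1 to 3. The counts behind these levels were 19, 20 and 7 against 1493, 1633 and 1498. Every rShh library was far above every Control library, and the 3 rShh libraries differed little among themselves. The counts scaled to library size rose 82.1-fold (log2 fold change 6.33, SE 0.22, 95% interval 5.85 to 6.82; adjusted p = 1.02e-08). With any 1 library left out, the log2 fold change was 6.02 to 6.57. Foxs1 moved from 19th to 4th place in the family, and from 0.144% to 9.65% of its FPKM. Its fitted rise ranked 150th among all 14775 genes tested and 5th among the 13898 of them with counts in all 6 libraries. Its level in the rShh libraries came to 0.887 ± 0.0683 times that of Foxf1 in the same library, where it had been 0.0117 ± 0.00549 times in the Control libraries (SD, n = 3 each).

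Some markers of muscle and of cells that surround vessels moved with Foxs1. Of the smooth and skeletal muscle markers, Myh11, smooth muscle myosin, was 2.87, 3.49 and 2.76 FPKM in the Control and 33.9, 31.9 and 33.6 FPKM in the rShh libraries (log2 fold change 3.43, SE 0.09, adjusted p = 2.45e-09). Des rose by 2.62, and Acta1 was not called (0.18, SE 0.17, adjusted p = 0.388). The 4 listed muscle genes in the table summed to 35.7 to 56.3 FPKM in the Control and 80.5 to 94.2 FPKM in the rShh libraries. Acta1 was the largest part of each sum, at 31.8 to 53.2 against 45.6 to 57.5 FPKM. Actc1 had 58, 0 and 4 counts against 8, 0 and 18 and was not tested. Of 9 pericyte genes, 8 were tested, and 6 rose, 1 fell and 1 was not called. The list was drawn up after these data had been seen. Its count therefore cannot be read against the 31.5% of all genes tested that rose or the 28.8% that fell. The 9 genes summed to 114 to 128 FPKM in the Control and 147 to 151 FPKM in the rShh libraries. Rgs5 had 0 counts in each Control library and 84, 87 and 89 in the rShh libraries. Mcam, the highest of the 9 in the Control, fell from 55.2 ± 7.11 to 40.4 ± 0.86 FPKM (SD, n = 3 each; edgeR log2 fold change -0.46, SE 0.09, adjusted p = 0.00137). Pdgfrb, the next highest there, rose by only 0.17 (SE 0.05). Vtn of that list was at 0 in 5 of the 6 libraries. Endothelial markers were low, with sums of 1.15 to 1.41 against 1.67 to 1.82 FPKM over 5 genes, in which Flt1 rose by 2.93 and Tek fell by 1.70 on the log2 scale. The part of these cells in the Foxs1 result was not tested. In such bulk samples a change in the number of cells of a type and a change in RNA per cell cannot be told apart.

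The FOXP genes, repressors that pair with each other, moved in opposite directions. Foxp1, which guards quiescence and lineage choices in many tissues, was 12.9, 11.9 and 9.89 FPKM in the Control and 28.9, 30.2 and 28.5 FPKM in the rShh libraries. Foxp4, its close relative, was 24.1, 27 and 27.9 FPKM against 16.6, 16.7 and 16.4 FPKM. Each gene's groups stood apart. Foxp1 rose 2.51-fold in scaled counts (log2 fold change 1.33, SE 0.09, adjusted p = 8.88e-07) and passed from the 4th to the 1st place in the family. Foxp4 fell by 0.68 on the log2 scale (SE 0.07, adjusted p = 1.55e-05) and passed from the 1st to the 3rd. Within single libraries the ratio of Foxp1 to Foxp4 was 0.535, 0.44 and 0.354 in the Control and 1.74, 1.81 and 1.74 in the rShh libraries. Foxp4 was thus the more abundant of the pair in all Control libraries and Foxp1 in all rShh libraries. Foxp2, known for its part in vocal learning and lung growth, was lower by far at 1.16, 0.736 and 0.675 FPKM in the Control and 0.246, 0.183 and 0.302 FPKM in the rShh libraries. It fell by 1.82 (SE 0.26, adjusted p = 0.000168), with no overlap between the groups. Foxp3, the factor of regulatory T cells, had 0 counts in the Control and 8, 6 and 0 in the rShh libraries and was not tested. It overlaps Ccdc22 on the opposite strand by 1751 bases. Of the other T and B cell markers, Cd8a had 8 to 38 counts and Cd3e 0 to 7 per library.

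**Figure D3:**
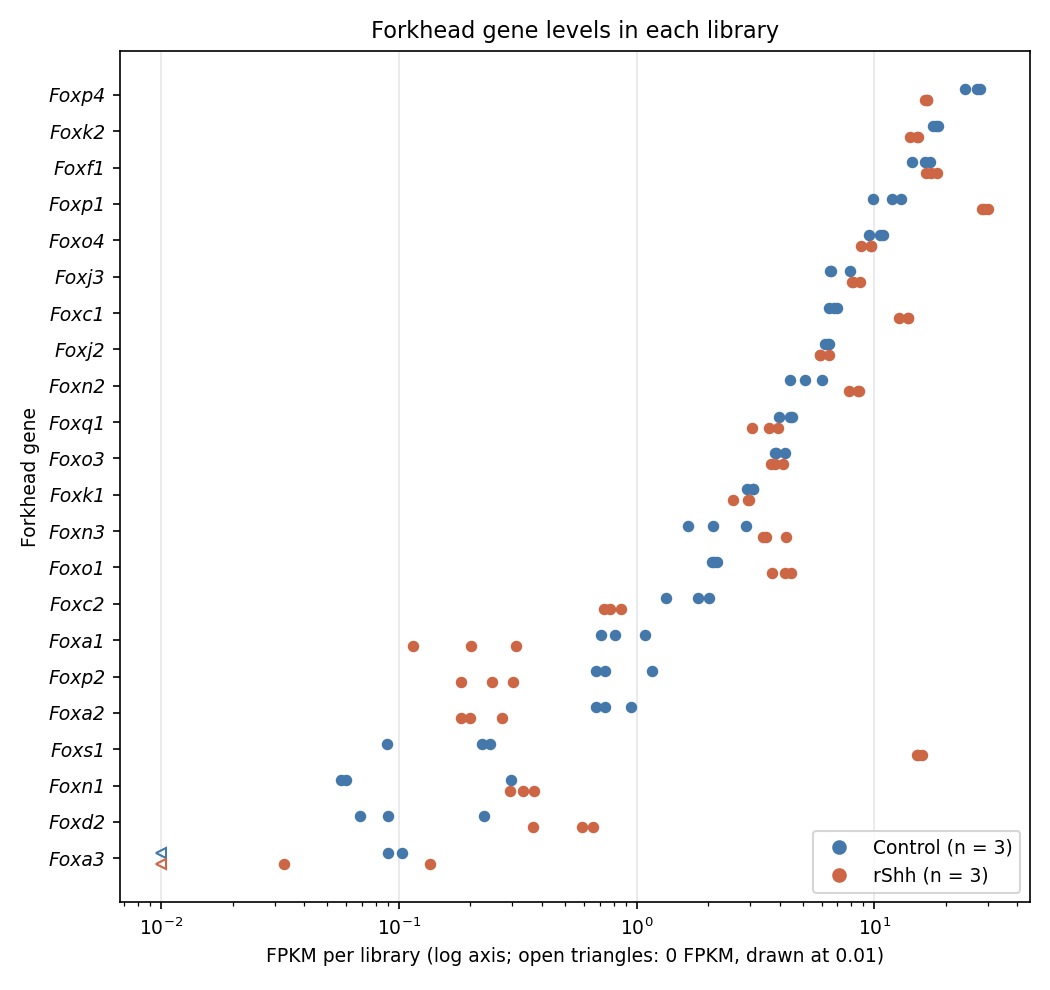
FPKM (x axis, log scale) of the 22 tested forkhead genes in each of the 3 Control and 3 rShh libraries, ordered by the Control mean, with values of 0 drawn as open triangles. Foxs1 rShh points lie near 15 FPKM, level with Foxk2 and Foxp4, and Foxp1 is the rightmost gene of the rShh libraries.

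The FOXC pair was split as well. Foxc1, needed for the skull, eye and vessels, was 6.45, 6.79 and 6.94 FPKM in the Control and 13.9, 13.9 and 12.7 FPKM in the rShh libraries. Foxc2, which acts with it in somites and in lymphatic vessels, was 1.33, 1.81 and 2.02 FPKM against 0.728, 0.77 and 0.856 FPKM. Neither gene's groups overlapped. Foxc1 rose 1.99-fold (95% interval of the fitted fold 1.78 to 2.23, SE 0.07 on the log2 scale, adjusted p = 1.66e-06), and Foxc2 fell by 1.14 on the log2 scale (SE 0.20, adjusted p = 0.000715). The ratio of Foxc1 to Foxc2 went from 4.01 ± 0.733 to 17.3 ± 2.24 (SD, n = 3 each), so that Foxc1 led in every library and led by more in the rShh libraries.

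Foxf1, the FOXF member that Hedgehog ligands are known to induce in gut and lung mesenchyme, was among the most abundant family members but was not called. It was 14.4, 17.2 and 16.4 FPKM in the Control and 18.4, 16.5 and 17.4 FPKM in the rShh libraries. The groups overlapped. The log2 fold change was 0.11 (SE 0.09, 95% interval -0.09 to 0.31, adjusted p = 0.299). Foxf1 ranked 3rd in the Control and 2nd in the rShh libraries and stood above 80.5% and 81.6% of all gene rows. Foxf2 was not analysed here.

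Foxf1, Foxc2 and Foxl1 are neighbours on chromosome 19, where Foxf1 spans 53012332 to 53016086 and Foxc2 53044379 to 53047081 on the plus strand, 28.3 kb apart, and Foxl1 follows 8.66 kb on. Their levels differed widely. Foxl1, a Hedgehog-responsive gene of gut mesenchyme, had 5 counts in Control 1 and 0 in the other 5 libraries and was not tested. Mthfsd, which lies between Foxf1 and Foxc2, was 5.67, 5.3 and 5.99 FPKM in the Control and 2.99, 3.11 and 4.22 FPKM in the rShh libraries and fell by 0.72 (SE 0.17, adjusted p = 0.00351). AABR07044017, a long noncoding RNA that lies 1822 bases from Foxf1 on the opposite strand, fell by 0.74 (SE 0.20, adjusted p = 0.00926). Both genes beside Foxf1 and Foxc2 itself were thus lower in the rShh libraries, and the interval of the Foxf1 change spanned 0. On chromosome 17, Foxc1 (33947506 to 33951484) and Foxq1 (34224818 to 34226453) lie 273 kb apart on the minus strand.

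The FOXA genes, which include the family's notochord factors, were low in all libraries, and Foxa1 and Foxa2 were lower in the rShh libraries. Foxa1 was 0.711, 0.81 and 1.08 FPKM in the Control and 0.201, 0.115 and 0.311 FPKM in the rShh libraries. Foxa2, which switches on Shh itself in the floor plate and notochord, was 0.733, 0.946 and 0.675 FPKM against 0.272, 0.2 and 0.183 FPKM. Neither gene's groups overlapped. Foxa1 fell by 2.04 on the log2 scale (SE 0.44, adjusted p = 0.00227) and Foxa2 by 1.83 (SE 0.33, adjusted p = 0.000867). The counts were few, 77 to 107 against 16 to 39 for Foxa1 and 92 to 136 against 32 to 48 for Foxa2. Their ratio to each other was 1.14 ± 0.402 and 1 ± 0.609 (SD, n = 3 each), within the spread between libraries. Foxa3, a liver and gut factor, had 15, 13 and 0 counts in the Control and 0, 6 and 22 in the rShh libraries, and no difference was detectable at this depth (log2 fold change -0.27, 95% interval -3.02 to 2.47, adjusted p = 0.863). The sum over the subfamily went from 1.72 ± 0.153 to 0.484 ± 0.141 FPKM (n = 3 each). Krt8, another gene of notochordal cells, fell too, from 5.42 ± 0.287 to 0.905 ± 0.119 FPKM (log2 fold change -2.58, SE 0.15, adjusted p = 2.61e-07). Other genes of the same marker list rose, Acan by 3.37, Hif1a by 1.69 and Slc2a1 by 1.12 on the log2 scale. Epithelial markers, of which Epcam, Cdh1 and Cldn4 were in the table, summed to at most 0.144 FPKM in any library. Whether the share of notochord-like cells differed between the groups was not tested.

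Among the FOXO genes, which act in stress resistance and quiescence, Foxo1 alone was called. Foxo1 was 2.11, 2.17 and 2.08 FPKM in the Control and 4.45, 4.22 and 3.73 FPKM in the rShh libraries, with no overlap. It rose 1.94-fold in scaled counts (log2 fold change 0.95, SE 0.12, adjusted p = 7.83e-05). Foxo3 was 4.2, 3.84 and 3.85 FPKM against 3.68, 4.13 and 3.82 FPKM, with a log2 fold change of -0.04 (95% interval -0.26 to 0.18, adjusted p = 0.747). Foxo4 was 10.6, 9.46 and 10.9 FPKM against 9.7, 9.72 and 8.77 FPKM, with -0.15 (95% interval -0.33 to 0.04, adjusted p = 0.151). Both overlapped between the groups, and both intervals ended below the Foxo1 change of 0.95. Foxo4 remained the most abundant FOXO gene of every library, and the ratio of Foxo1 to Foxo3 went from 0.536 ± 0.0311 to 1.07 ± 0.124 (SD, n = 3 each). Foxo6 had 4 counts in rShh 3 and 0 elsewhere.

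**Figure D4:**
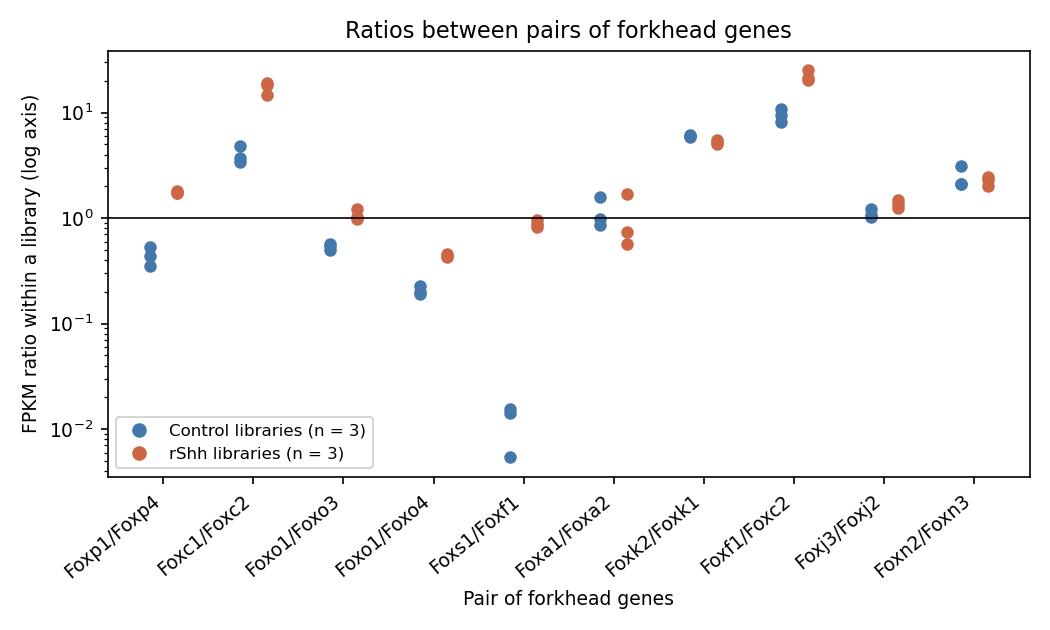
FPKM ratio (y axis, log scale) of 10 pairs of forkhead genes in each library, with 3 Control and 3 rShh points per pair and a line at 1. Foxp1/Foxp4 crosses 1, Foxs1/Foxf1 nears 1 from below in the rShh libraries, and Foxa1/Foxa2 overlaps between the groups.

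Genes that regulate FOXO proteins, from a list of 31, included 30 that were tested, of which 14 rose, 5 fell and 11 were not called, where 31.5% of all genes tested rose and 28.8% fell. The list's median log2 change was 0.13 beside 0.01 over all genes tested. Sgk1, a kinase that inactivates FOXO proteins, rose from 1.56 ± 0.216 to 8.14 ± 0.614 FPKM (log2 fold change 2.36, SE 0.11, adjusted p = 8.08e-08). Pik3r1, the regulatory subunit of the kinase upstream of AKT, rose from 2.83 ± 0.26 to 8.47 ± 0.571 FPKM (1.57, SE 0.09, adjusted p = 2.89e-07). Akt1, the kinase itself, fell from 146 ± 6.31 to 89 ± 3.44 FPKM (-0.72, SE 0.06, adjusted p = 2.75e-06), and Prmt1, a methyltransferase that protects Foxo1 from AKT, fell by 0.72 as well (SE 0.07, adjusted p = 1.1e-05). Of 28 tested genes that FOXO proteins are known to drive, 11 rose, 7 fell and 10 were not called, shares near the 31.5% and 28.8% of all genes, with a median of 0.07. The mitophagy gene Bnip3 rose from 58 ± 5.17 to 205 ± 15.2 FPKM (1.82, SE 0.07, adjusted p = 1.99e-08), and the mitochondrial superoxide dismutase Sod2 from 38.9 ± 3.5 to 129 ± 7.96 FPKM (1.72, SE 0.07, adjusted p = 3.99e-08). Cdkn1a, an inhibitor of the cell cycle, went down from 293 ± 10.3 to 143 ± 2.88 FPKM (-1.05, SE 0.05, adjusted p = 8.02e-08), and the stress gene Sesn2 from 39 ± 0.927 to 22.2 ± 0.465 FPKM (-0.82, SE 0.05, adjusted p = 6.99e-07). All means here are over 3 libraries with their SD. Transcripts show nothing of where FOXO proteins were in the cell.

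The FOXK genes, which repress autophagy genes and steer glycolysis, differed in level and only slightly in change. Foxk2 was 17.7, 18.5 and 18.2 FPKM in the Control and 14.1, 15.1 and 15.3 FPKM in the rShh libraries, with no overlap, and fell by 0.30 (SE 0.06, adjusted p = 0.00115). Foxk1 was 2.9, 3.09 and 3.1 FPKM against 2.54, 2.96 and 2.93 FPKM, which overlapped (log2 fold change -0.12, 95% interval -0.33 to 0.09, adjusted p = 0.298). The ratio of Foxk2 to Foxk1 was 5.98 ± 0.123 in the Control and 5.29 ± 0.243 in the rShh libraries (SD, n = 3 each). The Foxk1 row overlaps AABR07035428 on the same strand by 38362 bases, so reads may be split between them. That gene fell by 0.58 (SE 0.14, adjusted p = 0.00385).

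Among the FOXN genes, Foxn2 and Foxn3 rose. Foxn2 was 6.04, 5.12 and 4.42 FPKM in the Control and 7.79, 8.57 and 8.61 FPKM in the rShh libraries (log2 fold change 0.67, SE 0.10, adjusted p = 0.000263). Foxn3, a repressor tied to cell cycle checkpoints, was 2.89, 1.65 and 2.1 FPKM against 3.4, 4.26 and 3.5 FPKM (0.74, SE 0.18, adjusted p = 0.00493). Both genes' groups stood apart, and the Control libraries were the more scattered for both. Foxn1, the thymus epithelium factor, had 9, 43 and 9 counts in the Control and 65, 61 and 51 in the rShh libraries. It was not called (log2 fold change 1.22, 95% interval -0.20 to 2.64, adjusted p = 0.122), and Control 2 decides this: without it the log2 fold change was 2.39 (edgeR, adjusted p = 0.00476).

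The FOXJ genes moved little. Foxj3, a factor of muscle and sperm precursors, was 7.91, 6.52 and 6.59 FPKM in the Control and 8.05, 8.74 and 8.16 FPKM in the rShh libraries. The groups stood apart by a narrow gap between Control 1 and rShh 1, and the log2 fold change was 0.24 (SE 0.08, adjusted p = 0.0291). The edgeR call was lost on leaving out any library but Control 1, with adjusted p between 0.06 and 0.107 and a log2 fold change of 0.19 to 0.26. A row named Rps27a, with 10611 to 29570 counts per library, overlaps Foxj3 by 545 bases on the opposite strand. That row fell by 1.05 (SE 0.20, adjusted p = 0.00123), and whether its reads bear on Foxj3 was not tested. Foxj2 was 6.42, 6.39 and 6.21 FPKM against 5.89, 5.91 and 6.47 FPKM, which overlapped (-0.07, 95% interval -0.22 to 0.09, adjusted p = 0.431). Foxj1, the master factor of motile cilia, was not analysed here. Of 10 tested genes of motile cilia, 4 rose, 1 fell and 5 were not called, beside 31.5% higher and 28.8% lower over all genes, with a median of 0.43. Ccdc39, which sets the spacing of ciliary arms, rose from 0.615 ± 0.00751 to 1.39 ± 0.0701 FPKM (n = 3 each; log2 fold change 1.16, SE 0.15, adjusted p = 8.19e-05). Ccno rose by 4.72 (SE 0.94, adjusted p = 0.00146), on few counts, 0, 4 and 0 in the Control and 48, 56 and 38 in the rShh libraries. Tekt2 rose by 1.34 (SE 0.36, adjusted p = 0.00858), from 35, 23 and 26 counts to 89, 92 and 82. Dnah11, a dynein heavy chain, fell by 3.41 (SE 0.92, adjusted p = 0.00838) from 51, 70 and 26 counts to 0, 14 and 3.

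Foxq1 and Foxd2 complete the tested members. The Foxq1 row, typed as a pseudogene in the deposited table, was 3.96, 4.49 and 4.44 FPKM in the Control and 3.6, 3.92 and 3.05 FPKM in the rShh libraries. The groups stood apart, by the narrow gap between Control 1 and rShh 2, yet the gene was not called (log2 fold change -0.30, 95% interval -0.61 to 0.02, adjusted p = 0.0944). Foxd2, a factor of kidney and facial mesenchyme, had 7, 22 and 9 counts in Control 1 to 3 against 43, 72 and 76 in rShh 1 to 3, which came to 0.0685, 0.227 and 0.0896 against 0.368, 0.587 and 0.656 FPKM. It rose 4.03-fold in scaled counts without overlap (log2 fold change 2.00, SE 0.57, adjusted p = 0.0113), on few counts. Foxd1, its relative in kidney stroma, had 4, 21 and 19 counts against 0, 8 and 4 and was not tested.

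The 7 members below the count filter included Foxd1, Foxh1, Foxl1, Foxl2, Foxo6 and Foxp3. None of the 7 had more than 21 counts or 0.13 FPKM in any library. Foxl2, an ovary gene, had 1 count in Control 3 only, and Foxh1, a partner of SMAD proteins, 14 counts in rShh 3 only. A floor of 3 counts per library came to 0.0431 to 0.0591 CPM (counts scaled to the library size), counting error only, so lower levels were not detectable at this depth.

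The isoform table held 34 rows for the 29 members, of which 25 were tested and 12 were called (48%, where 45.1% of all isoform rows tested were called). Isoform rows are estimates that share reads. In 5 genes there were 2 rows. Foxp4's isoform of 17 exons held 97.8% to 98.9% of the gene's counts in every library and fell by 0.68 (SE 0.07, adjusted p = 0.000678), as the gene did. Foxo4's isoforms of 4 and 3 exons took like shares of the counts in all libraries, the longer holding 62.3% to 67.6%, and neither was called (log2 fold changes -0.12 and -0.20, adjusted p 0.329 and 0.232). Foxo3's isoform of 4 exons held 99.5% to 99.9%. The other genes had single libraries that stood apart. The shorter Foxj2 row took 30.4% of the gene's counts in Control 2 and 18.5% in rShh 1 but at most 0.24% in the other 4 libraries. The longer Foxn3 row took 96.3%, 52.1% and 81.7% in the Control and 99.2%, 96.1% and 99.6% in the rShh libraries. Its level was 2.88, 0.886 and 1.77 FPKM against 3.49, 4.24 and 3.61 FPKM, and it was not called (1.02, SE 0.39, adjusted p = 0.0796), although the gene as a whole was. The shorter Foxn3 row, at 0.232, 1.75 and 0.85 against 0.0528, 0.359 and 0.0259 FPKM, was not called either (-2.66, SE 1.13, adjusted p = 0.103). Both calls changed with the fit. In edgeR the longer row was called without Control 1 (1.48, adjusted p = 0.0161), and with limma on log2(FPKM + 1) (0.81, adjusted p = 0.0341). The shorter row was called without rShh 2 (edgeR, -4.36, adjusted p = 0.031) and with the replicate number as a block (-2.91, adjusted p = 0.0482).

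**Figure D5:**
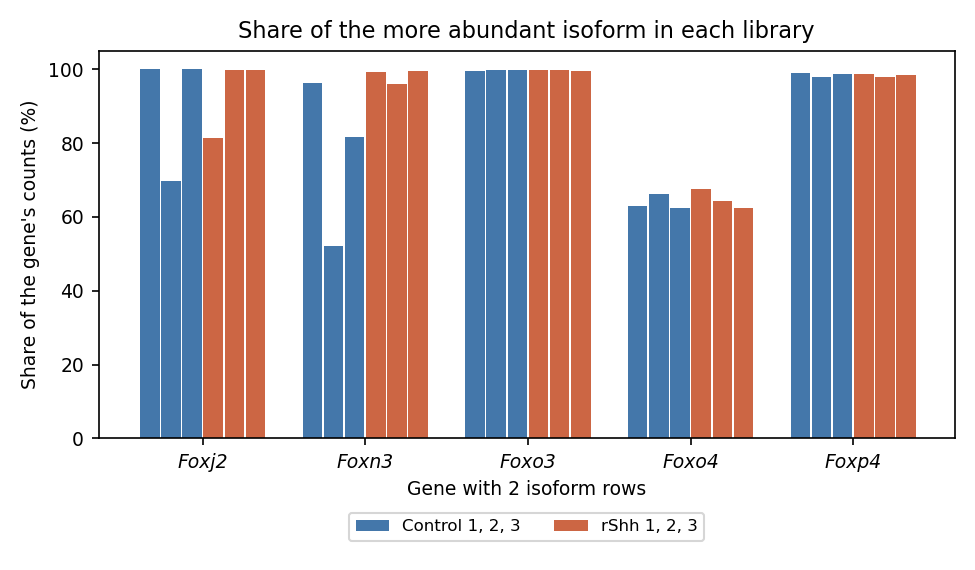
Share of a gene's counts (y axis, percent, from 0) taken by the more abundant isoform row, for the 5 forkhead genes with 2 rows, with 1 bar per library (3 Control, 3 rShh). Foxo3, Foxo4 and Foxp4 keep level shares, whereas Foxj2 dips in Control 2 and rShh 1 and Foxn3 in Control 2 and Control 3.

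Cofactors that forkhead proteins recruit were read from a list of 22, of which 21 were tested, with 2 higher, 8 lower and 11 not called, beside 31.5% higher and 28.8% lower over all genes, and a median log2 change of -0.10. Smad3, the TGF-beta mediator that binds FOXO proteins, fell from 22.7 ± 2.93 to 10.4 ± 0.412 FPKM (log2 fold change -1.13, SE 0.08, adjusted p = 1.64e-06). Mta1, a subunit of the NuRD complex that FOXP proteins recruit, fell by 0.49 (SE 0.07, adjusted p = 0.000115), and Bap1, a deubiquitinase that FOXK proteins bring to DNA, fell by 0.30 (SE 0.06, adjusted p = 0.00224). The corepressor Ncor1 rose from 8.36 ± 0.901 to 11.6 ± 0.53 FPKM (0.47, SE 0.08, adjusted p = 0.000401). Of 19 tested genes of the Hedgehog core and of mesenchyme that FOXF and FOXC proteins pattern, 5 rose, 8 fell and 6 were not called, beside the same 31.5% and 28.8%, with a median of -0.01. Beside Ptch1, Smo, the signal transducer, fell from 12.4 ± 0.491 to 6.78 ± 0.135 FPKM (-0.88, SE 0.07, adjusted p = 2.37e-06) and Bmp4, a target of FOXF1 in mesenchyme, from 244 ± 7.08 to 158 ± 2.31 FPKM (-0.64, SE 0.05, adjusted p = 1.85e-06). Barx1, a homeobox gene of stomach mesenchyme, had 1510, 2214 and 1927 counts in the Control and 0, 0 and 8 in the rShh libraries (-9.71, SE 0.44, adjusted p = 5.62e-08). All means are over 3 libraries with their SD.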

How the data were processed

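Poly(A) RNA of 3 Control and 3 rShh samples was sequenced as paired-end reads from libraries with dUTP-marked second strands, per the labels' protocols. The submitters' processing notes name edgeR, DESeq2, StringTie 1.3.4d, HISAT2 2.0.4 and cutadapt 1.9. What each did, the genome build and whether counting used strand are stated in no source used here. The authors deposited whole-number counts per gene (19088 rows) and per isoform (24343 rows), not normalized. The authors also deposited FPKM values, scaled to transcript length and library size, per the file headers. Samples were grouped by their labels.

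Counts were tested with edgeR 4.0.16 in R 4.3.3: filterByExpr with a minimum count of 10, TMM scaling, glmQLFit and glmQLFTest, group as the only term, two-sided, Benjamini-Hochberg adjustment over all rows tested, threshold 0.05. Isoform rows were tested likewise. Depth was 50758195 to 70031072 gene counts per library. Subfamily sums and ratios use FPKM and have no test. Alternatives used limma 3.58.1 and DESeq2 1.42.0. The test was checked on simulated data.

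Replicates within a group differed beyond sampling noise (chi-square per degree of freedom 10.5 to 50.5), so none was counted as a repeat. An untested member is not reported here by name. Per-library values are given for members that reach a mean of 1 FPKM in either group, or were called with at least a 2-fold change. Up to 4 other genes per list, those with the smallest p, are given by counts, by mean and SD or by change alone. Remaining genes were named after their values were seen. The members and lists were chosen with earlier results of these data known. Promoter windows came from RefSeq (GRCr8), matched by symbol.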

Additional observations from a re-analysis of the deposited data

How the results depend on the processing

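Alternatives to the edgeR test were other scalings, no filter on low counts, a replicate block, limma on log2(FPKM + 1) or log2(FPKM + 0.1), DESeq2, a test against a 1.5-fold change and leaving out each library. Of the 14 called members, 9 kept their direction and side of the threshold under every gene-level alternative that could be run for them. Foxj3, Foxk2, Foxn2, Foxn3 and Foxp4 did not. The only isoform row of Foxd2, with the gene's counts, lost its call without Control 1, Control 3, rShh 2 or rShh 3 (edgeR, adjusted p 0.06 to 0.0906). The only isoform row of Foxj3 was not called in the main test (edgeR, adjusted p = 0.0618). Against a 1.5-fold change, 5 members were higher, without Foxj3, Foxn2 and Foxn3, and 2167 of all genes were higher and 1091 lower. Foxp4 and Foxk2 were not called there. With limma on FPKM and a mean of at least 1 FPKM, 3 members were lower, at either pseudocount, since Foxa1, Foxa2 and Foxp2 lay below that mean. Upper-quartile scaling moved the split of all calls from 4657 higher and 4257 lower to 4273 and 4798, called Foxo4 (adjusted p = 0.0457) and Foxq1 (adjusted p = 0.0451) and lost Foxj3 (adjusted p = 0.0939). With 1 library left out, 7 to 8 members were higher and 6 lower, with 4159 to 4845 and 3656 to 4377 of all genes.

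Foxa3, on few counts, changed sign without Control 1, Control 2 or rShh 1 and spanned -1.91 to 0.30 on the log2 scale over libraries left out, as did its isoform row. The longer Foxj2 isoform, at -0.01, turned to 0.00 with the replicate block, 0.01 with limma and above 0 without Control 1, Control 3 or rShh 1, with -0.15 to 0.09 over libraries left out. The cause was not tested. Deviations of samples with the same number correlated at -0.058 to -0.024, and those of samples with different numbers at -0.021 to 0.057. With 3 samples per group these correlations cannot show whether samples with equal numbers were paired. With the replicate block 8 members were higher and 6 lower, and 4470 and 3970 of all genes. Members with few counts, such as Foxd2, Foxn1 and the FOXA genes, are limited by depth.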
